A study of Homo sapiens with 48 samples.

Results

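The ADAMTS proteases ADAMTS1, ADAMTS2, ADAMTS4, ADAMTS5, ADAMTS6, ADAMTS9, ADAMTS12 and ADAMTS14 were followed in human fibroblasts with or without perturbation of the transcription factor GLIS3, unstimulated and during stimulation with TGFβ and IL-1β. The genes were chosen by name, and all 8 were found among the 29744 genes of the deposited table. ADAMTS1 was the most abundant and fell 2.56- to 3.84-fold within 6 h of the cytokines in every group of cells. ADAMTS2 rose at 6 h in the same 4 groups. ADAMTS6 was called higher in 3 of them, and these calls, like the missing one, depended on single libraries. Averaged over the 4 times, ADAMTS12 was higher and ADAMTS2 and ADAMTS6 were lower in the cells with induced GLIS3. In that comparison 18.4% of all genes tested were called. With GLIS3 knockout, 0 of the 5 members tested were called. ADAMTS4, ADAMTS5, ADAMTS9 and ADAMTS14 were at or near the limit of detection.

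ADAMTS proteins are secreted zinc metalloproteases whose thrombospondin repeats tether them to the extracellular matrix. ADAMTS1, ADAMTS4, ADAMTS5 and ADAMTS9 cleave the large proteoglycans aggrecan and versican, ADAMTS2 and ADAMTS14 remove the amino-terminal propeptide of fibrillar procollagens, ADAMTS12 cleaves cartilage oligomeric matrix protein, and ADAMTS6 acts on components of microfibrils. In fibroblasts, they help to set how much matrix is laid down and how it is turned over, and TIMP3 is their best known tissue inhibitor.

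The cells were an immortalized human fibroblast line with an mNeonGreen reporter at IL11. Reporter cells were cloned from single cells, and whether the arms share a parent clone is not stated. One arm (CRISPRko) expressed Cas9, and the other (CRISPRa) expressed dCas9 fused to the activator VP64. Each arm held cells with a non-targeting or a GLIS3 guide RNA, kept as selected pools rather than single clones, and each was sampled before the cytokines (both at 10 ng/ml) and 6, 12 and 24 h into the exposure, with 3 libraries per condition and 48 libraries in all. The 4 groups were CRISPRko control (H47_Ctrl), GLIS3 CRISPRko (H47_KO), VP64_Ctrl and VP64_A. One label describes all libraries, controls included, as a GLIS3 knockout line. For CRISPRa, the titles and the descriptions of the samples name opposite groups as the control, so these groups are called by their descriptions and each difference is given as VP64_A over VP64_Ctrl.

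The GLIS3 level followed the descriptions. It was 16.6 to 36.7 CPM (counts relative to the TMM-scaled library size) in the 12 VP64_A libraries and 1.91 to 6.31 in VP64_Ctrl, and 1.45 to 6.47 in CRISPRko control and 0.144 to 1.63 in GLIS3 CRISPRko. Libraries held 2321990 to 10661004 estimated counts. Fibroblast markers summed to 11300 to 32000 TPM (the length-corrected share of transcripts, on a fixed total) in every library. VIM alone was at 8820 to 23800 TPM. COL1A1, COL1A2, COL3A1, LUM and THY1 lay between 40.5 and 4840 TPM, and DCN, PDGFRA and PDGFRB between 1.07 and 45.2 TPM. The epithelial markers EPCAM, CDH1 and KRT5 and the endothelial, melanocyte and chondrocyte markers stayed at or below 0.94 TPM each, whereas KRT14 was at 14.1 to 78.9 TPM in VP64_A, 2.17 to 12.8 TPM in VP64_Ctrl and at most 1.66 TPM in the CRISPRko arm. Of the 5 immune markers, CD68, a lysosomal protein that fibroblasts also make, was at 13.6 to 69.6 TPM and the other 4 at no more than 2.35 TPM. Nothing in the labels says that the libraries of a condition came from separate cultures, so p-values measure the spread between these libraries, and in bulk RNA fewer expressing cells and less RNA per cell cannot be told apart.

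On the length-corrected TPM scale, the levels of the 8 genes spanned more than 3 orders of magnitude. ADAMTS1 averaged 27.7 TPM over the 48 libraries, with a range of 7.3 to 66.6. ADAMTS12 averaged 6.72 TPM (2.68 to 14.6), ADAMTS2 4.28 TPM (1.29 to 11) and ADAMTS6 2.78 TPM (0.828 to 7.18), and the ranges of these 3 neighbours overlapped. ADAMTS14 averaged 0.207 TPM and ADAMTS5 0.111 TPM, again with overlapping ranges, and both were at 0 in part of the libraries. ADAMTS4 was detected in 4 of 48 libraries with 10 counts in total and ADAMTS9 in 5 of 48 with 6 counts. The 4 proteoglycan-cleaving members therefore differed in level as much as the whole set did, with ADAMTS1 at the top and ADAMTS9 at the bottom.

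**Figure D1:**
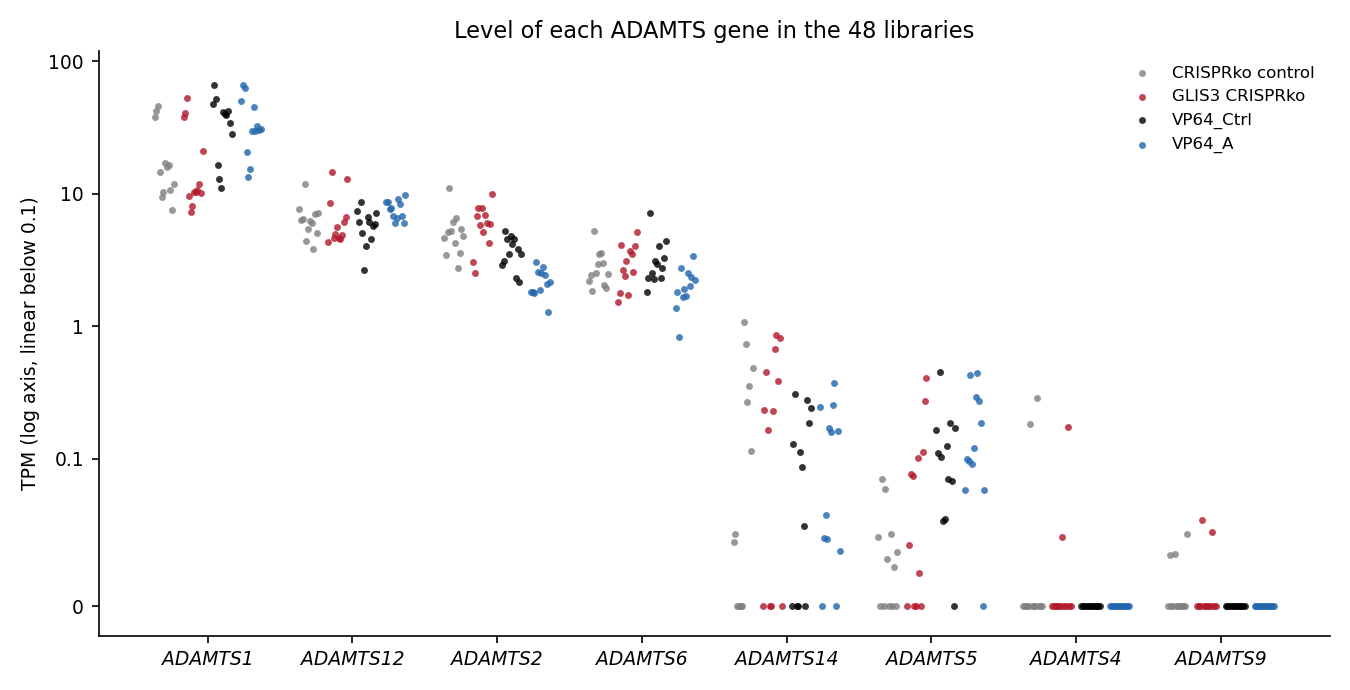
Level of each ADAMTS gene (vertical axis, TPM, logarithmic above 0.1 and linear below) in the 48 libraries, each point 1 library and each colour 1 of the 4 groups of cells. ADAMTS1, ADAMTS12, ADAMTS2 and ADAMTS6 were above 0 in every library, and ADAMTS4 and ADAMTS9 were at 0 in nearly all.

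In GRCh38 (GENCODE v44), ADAMTS1 lies at chr21:26835755-26845409 and ADAMTS5 at chr21:26917922-26967088, both on the minus strand and separated by 72.5 kb. ADAMTS12 (chr5:33523535-33892019), ADAMTS6 (chr5:65148738-65481920) and ADAMTS2 (chr5:179110853-179345461) lie far apart on the minus strand of chromosome 5. ADAMTS4 lies at chr1:161184302-161199054 and ADAMTS9 at chr3:64515654-64688000 on the minus strand, and ADAMTS14 at chr10:70672506-70762441 on the plus strand.

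The RefSeq promoter table (GRCh38.p14) held 4 members, ADAMTS2, ADAMTS6, ADAMTS12 and ADAMTS14. ADAMTS1, ADAMTS4, ADAMTS5 and ADAMTS9 were not matched. The 250 bases before the start of ADAMTS2 and ADAMTS6, which rose with the cytokines, and of ADAMTS12, which differed between VP64_A and VP64_Ctrl, are given 5′ to 3′ on the minus strand, from chr5:179345462-179345711, chr5:65481921-65482170 and chr5:33891991-33892240. Capitals mark matches, on either strand, to the AP-1 motif TGANTCA, the TEAD motif GGAATG, the GLIS core TGGGGGGT or the NF-kB motif.
ADAMTS2: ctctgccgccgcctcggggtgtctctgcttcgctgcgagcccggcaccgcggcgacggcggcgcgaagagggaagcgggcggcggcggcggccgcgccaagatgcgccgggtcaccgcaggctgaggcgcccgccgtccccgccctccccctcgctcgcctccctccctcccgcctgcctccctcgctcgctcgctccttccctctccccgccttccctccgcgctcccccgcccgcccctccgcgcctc
ADAMTS6: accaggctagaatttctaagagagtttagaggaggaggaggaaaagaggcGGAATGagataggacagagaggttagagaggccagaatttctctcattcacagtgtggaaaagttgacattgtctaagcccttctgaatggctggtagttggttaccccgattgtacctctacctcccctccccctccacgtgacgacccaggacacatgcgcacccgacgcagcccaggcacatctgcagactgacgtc
ADAMTS12: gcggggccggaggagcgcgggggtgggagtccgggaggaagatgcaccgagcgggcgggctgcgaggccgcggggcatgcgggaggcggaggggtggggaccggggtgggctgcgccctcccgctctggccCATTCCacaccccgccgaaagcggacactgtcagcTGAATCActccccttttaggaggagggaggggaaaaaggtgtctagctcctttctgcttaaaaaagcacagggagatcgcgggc
ADAMTS6 held 1 TEAD match 200 to 195 bases before its start. ADAMTS12 held 1 TEAD match 119 to 114 bases before its start and 1 AP-1 match 84 to 78 bases before it, and no 2 matches overlapped. ADAMTS2 and ADAMTS14 held none of the 4 motifs in this window. Among all 35116 promoters of the same length, 11.9% held the TEAD motif, 6.57% the AP-1 motif, 1.33% the GLIS core and 9.96% the NF-kB motif. The RefSeq start of ADAMTS12 lies within the GENCODE gene. The base composition differed too, with 80% G and C in ADAMTS2, 68.4% in ADAMTS12 and 52.4% in ADAMTS6.

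To ask how the cytokines changed these genes, each stimulated time was compared with 0 h in each group of cells. The fit covered the 24 libraries of an arm, and calls required an adjusted p (Benjamini-Hochberg, edgeR) under 0.05 across the 10962 genes that could be tested for CRISPRko or the 10980 for CRISPRa. ADAMTS1, ADAMTS2, ADAMTS6 and ADAMTS12 were tested in both arms, ADAMTS14 only for CRISPRko and ADAMTS5 only for CRISPRa, which makes 5 members per arm. ADAMTS4 and ADAMTS9 had too few counts to be tested. In CRISPRko control, 3 of 5 members were called at 6 h (15.9% of all genes tested), 3 at 12 h (19.6%) and 1 at 24 h (10.3%). In GLIS3 CRISPRko, 3 of 5 were called at 6 h (23.9% of all genes), 4 at 12 h (27.4%) and 1 at 24 h (15.8%). In VP64_Ctrl, 2 of 5 were called at 6 h (28.8% of all genes), 0 at 12 h (26.8%) and 0 at 24 h (16%), where 1 and 0 members had an unadjusted p under 0.05. In VP64_A, 3 of 5 were called at 6 h (17.4%), 3 at 12 h (19.7%) and 2 at 24 h (13.6%).

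ADAMTS1 fell at 6 h in all 4 groups. Its CPM in CRISPRko control was 103, 121 and 133 at 0 h and 31.8, 33.2 and 36.6 at 6 h, a log2 fold change of -1.82 ± 0.16 (SE, adjusted p = 9e-11). In GLIS3 CRISPRko it went from 109, 134 and 135 to 29.4, 34.2 and 35 (-1.94 ± 0.17, adjusted p = 4.54e-11). The libraries at 0 and 6 h did not overlap in either group.

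In VP64_Ctrl, ADAMTS1 went from 89.2, 122 and 188 CPM at 0 h to 50.4, 52.5 and 52.8 at 6 h (log2 fold change -1.36 ± 0.21, adjusted p = 5.39e-06). In VP64_A it went from 153, 194 and 195 to 54.4, 61.1 and 61.3 (-1.62 ± 0.2, adjusted p = 2.27e-07). The 3 unstimulated VP64_Ctrl libraries spread more widely than those of any other condition for this gene, and still all lay above the 6 h libraries. These 4 calls at 6 h held under every alternative run and with each library left out.

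After 6 h, the arms parted. In CRISPRko control ADAMTS1 stood at 49.7, 51.5 and 58 CPM at 12 h (log2 fold change against 0 h -1.16 ± 0.16) and at 27.1, 35.2 and 35.4 at 24 h (-1.85 ± 0.16), and in GLIS3 CRISPRko at 33.6, 36.5 and 38.7 at 12 h and 26.1, 38.4 and 42.7 at 24 h (-1.79 ± 0.16 at both times). All 4 differences were called, with adjusted p between 8.51e-11 and 1.04e-06. In VP64_Ctrl it was back at 119, 152 and 167 CPM at 12 h (0.13 ± 0.19, adjusted p = 0.672) and at 79.2, 105 and 137 at 24 h (-0.32 ± 0.2, adjusted p = 0.298), within the range of its own 0 h libraries or close to it. In VP64_A it reached 126, 130 and 132 at 12 h (-0.48 ± 0.2, adjusted p = 0.0827) and 112, 115 and 126 at 24 h, where it was still called below 0 h (-0.62 ± 0.2, adjusted p = 0.0311). That last call was lost without VP64_A_0hr replicate 2 or 3 or any 1 of the 3 VP64_A_24hr libraries (-0.56 to -0.67). Without VP64_Ctrl_0hr replicate 3, the lowest of its condition, the VP64_Ctrl difference became -0.12 at 12 h and -0.55, then called, at 24 h. On unscaled TPM the VP64_Ctrl difference at 24 h (-0.65 and -0.67) and the VP64_A difference at 12 h (-0.77 and -0.79) were called, and the latter was also called without the filter on low counts (-0.5).

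The rebound was tested within each group by comparing 24 h with 6 h. ADAMTS1 rose by 1.04 ± 0.21 on the log2 scale in VP64_Ctrl (adjusted p = 0.000409) and by 1 ± 0.2 in VP64_A (adjusted p = 0.000796), and gave -0.032 ± 0.17 in CRISPRko control and 0.15 ± 0.17 in GLIS3 CRISPRko, neither called. On unscaled TPM, GLIS3 CRISPRko gave 0.65 and 0.71 and was called. In this comparison 2 of 5 members were called in CRISPRko control (14.6% of all genes tested), 1 in GLIS3 CRISPRko (24.2%), 2 in VP64_Ctrl (18.4%) and 1 in VP64_A (12.5%).

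The difference between the arms was then tested directly in the control cells, in a fit over all 48 libraries that was added after the ADAMTS1 values had been seen. The response of VP64_Ctrl exceeded that of CRISPRko control by 0.45 ± 0.27 on the log2 scale at 6 h (adjusted p = 0.478), by 1.29 ± 0.26 at 12 h (adjusted p = 0.00569) and by 1.52 ± 0.26 at 24 h (adjusted p = 0.000854). ADAMTS1 was the only 1 of 6 members tested that was called, at 12 and 24 h and not at 6 h, beside 0.429% of all 11422 genes at 6 h, 0.341% at 12 h and 0.49% at 24 h. On unscaled TPM the difference turned to -0.15 and -0.14 at 6 h, was not called at 12 h (0.86 and 0.9) and was called at 24 h (1.34 and 1.42). The arms differ in the effector, the infected population, any handling that went with it and possibly the parent clone, and these cannot be told apart. ADAMTS1 made up 78.3% ± 7.22 (SD, n = 3) of the summed TPM of the 8 members in unstimulated VP64_Ctrl and 75.6% ± 2.9 in CRISPRko control, but 72.2% ± 6.45 and 42.1% ± 4.13 at 24 h.

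**Figure D2:**
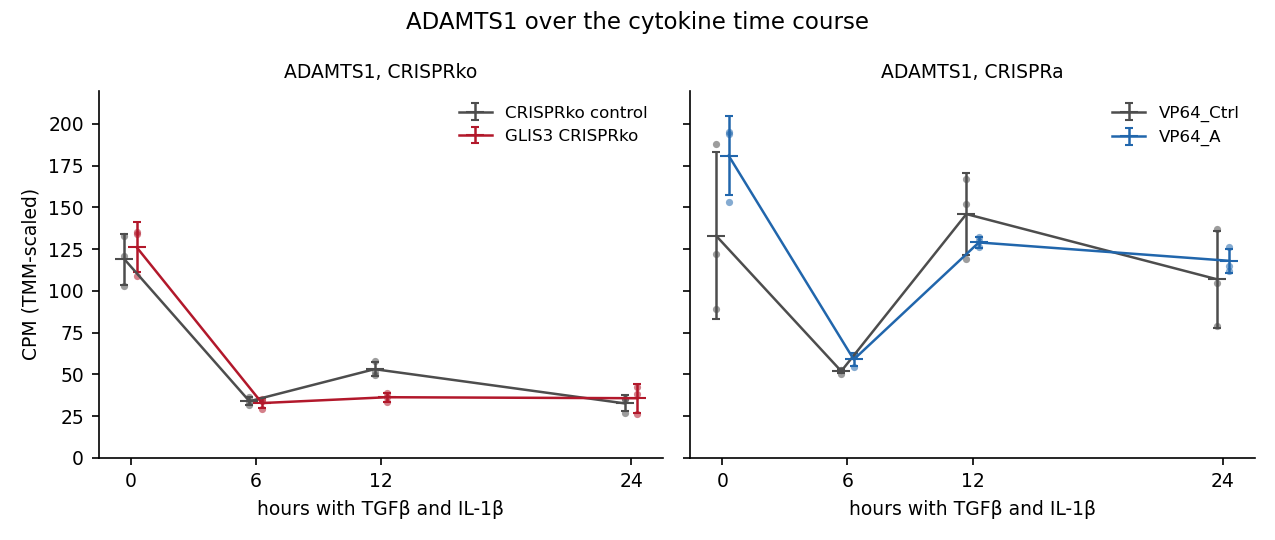
ADAMTS1 level (vertical axis, CPM on TMM-scaled library sizes) against hours with TGFβ and IL-1β in the CRISPRko arm (left) and the CRISPRa arm (right). Points are libraries, and lines join the mean ± SD of 3 libraries. Both arms are lowest or near it at 6 h, after which VP64_Ctrl and VP64_A lie at 79.2 CPM or above and both CRISPRko groups at 58 CPM or below.

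ADAMTS2, a procollagen N-proteinase, moved the other way at 6 h. In CRISPRko control its CPM was 12.9, 14.4 and 17.6 at 0 h and 25.9, 27.7 and 31.2 at 6 h (log2 fold change 0.94 ± 0.21, adjusted p = 0.00148), and in GLIS3 CRISPRko 10.7, 12 and 19 at 0 h and 29.7, 30.7 and 34.3 at 6 h (1.18 ± 0.22, adjusted p = 0.000101). In VP64_Ctrl it was 4.55, 6.89 and 7.54 at 0 h and 12.7, 13.4 and 16.8 at 6 h (1.15 ± 0.27, adjusted p = 0.00158), and in VP64_A 2.77, 2.8 and 3.43 at 0 h and 6.21, 7.04 and 8.54 at 6 h (1.26 ± 0.3, adjusted p = 0.00252). In each group every 6 h library lay above every 0 h library. All 4 calls held with each library left out, but on TPM without further scaling the differences were smaller (0.19 to 0.74 on log2(TPM + 1)) and not called. After TMM scaling of the TPM values, 3 of the 4 were called and VP64_A was not (0.47).

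At 12 h ADAMTS2 remained above 0 h in GLIS3 CRISPRko (24.8, 25.4 and 26.1 CPM, log2 fold change 0.86 ± 0.21, adjusted p = 0.00201) and in VP64_A (4.61, 8.11 and 9.38 CPM, 1.32 ± 0.29, adjusted p = 0.00126). In the controls the 12 h difference was 0.32 ± 0.23 for CRISPRko control, where 1 library at 26.2 CPM stood apart from the other 2 at 14.3 and 14.5, and 0.64 ± 0.27 for VP64_Ctrl, and neither was called. Without VP64_Ctrl_12hr replicate 3 the VP64_Ctrl difference was 0.8 and called. By 24 h no group was called against 0 h, with log2 fold changes from 0.15 to 0.46, but without H47_KO_0hr replicate 3 the GLIS3 CRISPRko difference of 0.39 became 0.69 and was called. From 6 to 24 h it fell by 0.78 in CRISPRko control (SE 0.22, adjusted p = 0.0116), by 0.79 in GLIS3 CRISPRko (SE 0.21, adjusted p = 0.00636) and by 1.01 in VP64_Ctrl (SE 0.28, adjusted p = 0.0101) on the log2 scale, while the VP64_A difference of -0.8 ± 0.31 was not called (adjusted p = 0.0904). The fall in CRISPRko control was lost without H47_Ctrl_24hr replicate 1 (-0.72). On unscaled TPM neither the 12 h nor the 24 h against 6 h calls were kept, with -0.14 in GLIS3 CRISPRko and -0.36 in VP64_Ctrl for the latter on log2(TPM + 1). TMM-scaled TPM also lost the 12 h call in VP64_A (0.54) and the 24 h against 6 h call in CRISPRko control (-0.47).

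ADAMTS6, the microfibril-associated member, rose less and with more spread. In CRISPRko control its CPM was 8.64, 9.45 and 11.1 at 0 h, 14.1, 16.9 and 18.4 at 6 h (log2 fold change 0.75 ± 0.23, adjusted p = 0.0185), 16.9, 17 and 17.7 at 12 h (0.81 ± 0.24, adjusted p = 0.0124) and 10.8, 11.2 and 11.9 at 24 h (0.21 ± 0.24). In GLIS3 CRISPRko it was 8.66, 9.23 and 13.4 at 0 h, 15.4, 17.8 and 18.1 at 6 h (0.7 ± 0.23, adjusted p = 0.028), 10.2, 19.3 and 19.3 at 12 h (0.62 ± 0.22, adjusted p = 0.036) and 13.2, 16.7 and 16.7 at 24 h (0.56 ± 0.22, adjusted p = 0.0844). The 0 and 12 h libraries of GLIS3 CRISPRko overlapped, since 1 library at 12 h was at 10.2. Without H47_KO_0hr replicate 3, the 24 h difference was 0.79 and called.

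In VP64_A, ADAMTS6 was 4.12, 6.7 and 8.55 CPM at 0 h and 10.9, 12.2 and 12.9 at 6 h (log2 fold change 0.87 ± 0.29, adjusted p = 0.0346). It was 11.5, 11.6 and 14.1 at 12 h (0.92 ± 0.29, adjusted p = 0.0223) and 13.3, 14.6 and 20.2 at 24 h (1.27 ± 0.29, adjusted p = 0.00191). In VP64_Ctrl the 0 h libraries ran from 7.53 to 19.6 CPM, and the differences of 0.38, 0.51 and 0.45 at 6, 12 and 24 h were not called. Without VP64_Ctrl_0hr replicate 3, the library at 19.6, these became 0.79, 0.92 and 0.88 and all 3 were called.

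The ADAMTS6 calls at 12 h in CRISPRko control and at 24 h in VP64_A held with each library left out. The call at 6 h in CRISPRko control was lost without H47_Ctrl_0hr replicate 1 or 3 or H47_Ctrl_6hr replicate 1 (0.68 to 0.72). In GLIS3 CRISPRko, the 6 h call was lost without H47_KO_0hr replicate 1 or 2 or H47_KO_6hr replicate 2 or 3 (0.59 to 0.71), and the 12 h call without H47_KO_0hr replicate 1 or 2 or H47_KO_12hr replicate 2 or 3 (0.46 to 0.54). In VP64_A, the 6 h call was lost without VP64_A_0hr replicate 1 or 3 or any 1 of the VP64_A_6hr libraries (0.67 to 0.94), and the 12 h call without VP64_A_0hr replicate 1 or 3 or VP64_A_12hr replicate 3 (0.7 to 0.94). Both GLIS3 CRISPRko calls were also lost without the filter on low counts (0.68 and 0.62), and the 12 h call in the fit of only the libraries compared (0.63). None of the 7 ADAMTS6 calls against 0 h was kept on unscaled TPM (0.17 to 0.65 on log2(TPM + 1)). On TMM-scaled TPM, CRISPRko control lost its 6 h call (0.56) and GLIS3 CRISPRko its 12 h call (0.46). VP64_A lost its calls at 6 and 12 h on that scale (0.57 at both).

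ADAMTS12, which cleaves cartilage oligomeric matrix protein, was rarely called with the cytokines. Of its 12 differences from 0 h, 1 was called, in GLIS3 CRISPRko at 12 h, where CPM went from 16.4, 29.9 and 32.1 to 15.7, 18.3 and 18.4 (log2 fold change -0.59 ± 0.22, adjusted p = 0.04) and the libraries overlapped. That call was lost under DESeq2 (-0.58), on all TPM scales (-0.43 to -0.78) and without H47_KO_0hr replicate 2 or 3 or any 1 of the H47_KO_12hr libraries (-0.39 to -0.64). The other 11 ranged from -0.29 to 0.27. On unscaled TPM, the VP64_Ctrl difference at 6 h went from -0.21 to -0.79 and -0.93 and was called.

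**Figure D3:**
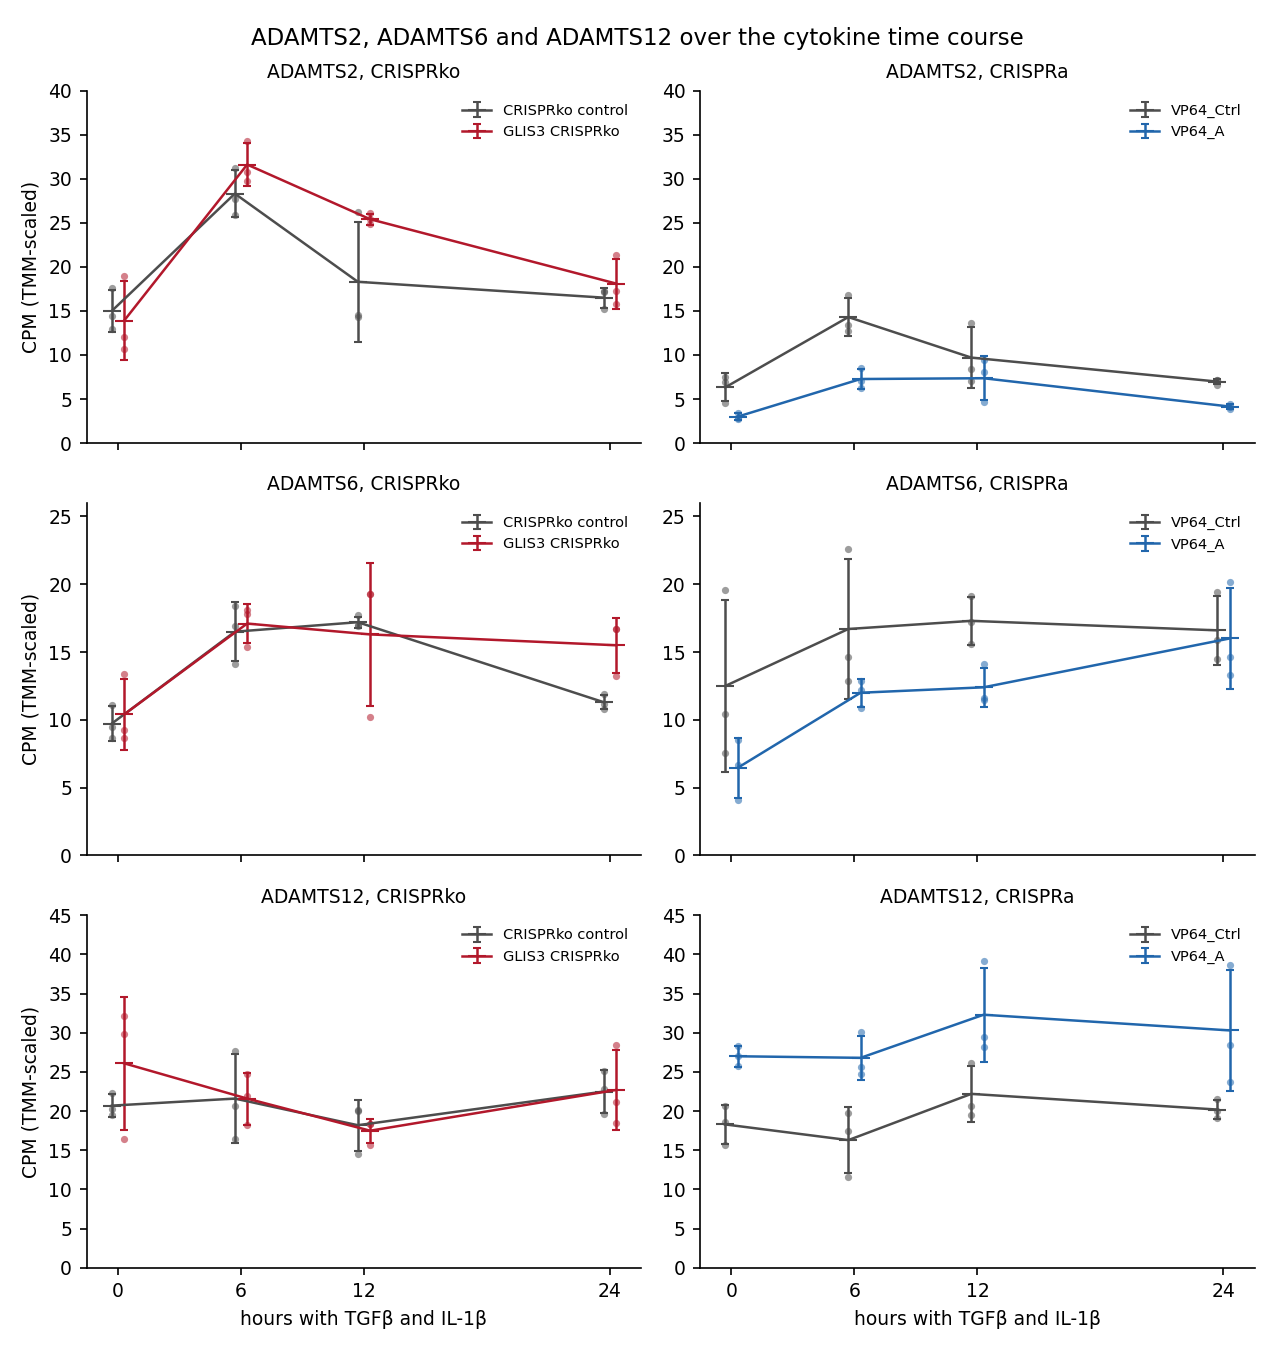
ADAMTS2, ADAMTS6 and ADAMTS12 levels (vertical axes, CPM on TMM-scaled library sizes) against hours with TGFβ and IL-1β, with the CRISPRko arm on the left and the CRISPRa arm on the right. Points are libraries, and lines join the mean ± SD of 3 libraries. ADAMTS2 peaks at 6 h in 3 groups and at 6 to 12 h in VP64_A, where it runs from 3 to 7.36 CPM, and ADAMTS12 of VP64_A lies above VP64_Ctrl at every time.

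ADAMTS14 and ADAMTS5 were counted in single reads. ADAMTS14, the second procollagen N-proteinase, had 1, 1 and 0 counts in the unstimulated CRISPRko control libraries, 0, 0 and 0 at 6 h, 10, 8 and 3 at 12 h and 7, 1 and 7 at 24 h. The 21 counts at 12 h against 2 at 0 h gave a 21.3-fold ratio with a 95% counting interval of 5.21 to 187 (edgeR adjusted p = 0.0123). The 15 counts at 24 h against 0 at 6 h gave 6.92-fold with 3 counts over the group in place of the 0 (edgeR adjusted p = 0.0255). That value carries no counting error on the 15. The first call was lost without H47_Ctrl_0hr replicate 1 or H47_Ctrl_12hr replicate 1, and the second on all TPM scales and without H47_Ctrl_24hr replicate 1 or 3 or any 1 of the H47_Ctrl_6hr libraries.

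In GLIS3 CRISPRko, ADAMTS14 had 14, 2, 35 and 19 summed counts at 0, 6, 12 and 24 h, and in the CRISPRa arm, where it was not tested, it had 9, 1, 3 and 15 in VP64_Ctrl and 11, 5, 17 and 3 in VP64_A. In 3 of the 4 groups the sum, which is not scaled for depth, was lowest at 6 h. In CPM, VP64_Ctrl averaged 0.193 at 6 h and 0.192 at 12 h. ADAMTS5, an aggrecan-cleaving member, had 11 counts over the 12 CRISPRko control libraries, 47 in GLIS3 CRISPRko, 64 in VP64_Ctrl and 87 in VP64_A. Of the 47, 23 came from H47_KO_24hr replicate 3. In VP64_A its CPM was 0.515, 0.629 and 0.659 at 0 h and 2.58, 2.69 and 2.78 at 12 h (log2 fold change 2.15 ± 0.64, adjusted p = 0.015), without overlap. That call was lost without VP64_A_0hr replicate 1 (2.03) or VP64_A_12hr replicate 2 (2.09), and on all TPM scales (0.29 to 1.17). In VP64_Ctrl the 12 h difference was 0.00056 ± 0.52.

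ADAMTS4, which also cleaves aggrecan, had 5 counts in CRISPRko control, 5 in GLIS3 CRISPRko and 0 in the CRISPRa groups. ADAMTS9 had 3 counts in each CRISPRko group and 0 in the CRISPRa groups. A count of 0 in 1 library allows a level of up to 0.281 to 1.29 CPM, from the deepest to the shallowest library, counting error only, so changes of these genes were not detectable at this depth.

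**Figure D4:**
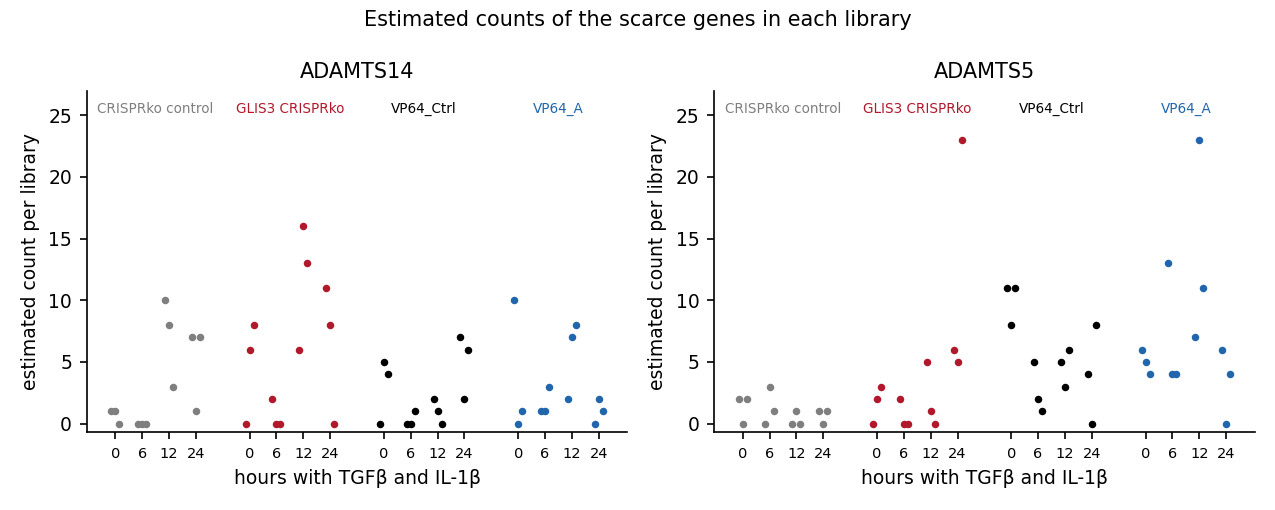
Estimated counts per library (vertical axis) of ADAMTS14 (left) and ADAMTS5 (right) by hours with the cytokines for each of the 4 groups of cells, each point 1 library. ADAMTS14 is at 0 in the 3 CRISPRko control libraries at 6 h and reaches 10 at 12 h, and ADAMTS5 is at 3 or fewer counts in all 12 CRISPRko control libraries.

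The next comparison asked whether loss of GLIS3 changed these genes. Of the 5 members tested in the CRISPRko arm, 0 were called at 0 h (0.301% of all genes tested), 0 at 6 h (0.319%), 0 at 12 h (0.0821%) and 0 at 24 h (0.21%), and 0 for the mean of the 4 times (3.07%). At an unadjusted p under 0.05, 2 of the 20 member tests at single times and 0 of the 5 means passed, and DESeq2, limma and the other fits also called 0. The 2 were ADAMTS1 and ADAMTS2 at 12 h. ADAMTS1 at 12 h was 49.7, 51.5 and 58 CPM in control and 33.6, 36.5 and 38.7 in GLIS3 CRISPRko, which do not overlap (log2 fold change -0.55 ± 0.16, adjusted p = 0.24). ADAMTS2 at 12 h was 0.46 ± 0.22 higher in GLIS3 CRISPRko (adjusted p = 0.621), with overlapping libraries.

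Averaged over the 4 times, the log2 difference of GLIS3 CRISPRko from control was -0.092 for ADAMTS1 (approximate 95% interval -0.25 to 0.068), 0.17 for ADAMTS2 (-0.04 to 0.38), 0.13 for ADAMTS6 (-0.1 to 0.35) and 0.069 for ADAMTS12 (-0.15 to 0.29). ADAMTS14 gave 1.35 ± 0.73 from the few counts above. These intervals reach no further than 0.38 from 0 for the 4 abundant genes.

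In the CRISPRa arm, ADAMTS2, ADAMTS6 and ADAMTS12 differed between VP64_A and VP64_Ctrl. At 0 h, 2 of 5 members were called (9.41% of all genes tested), at 6 h 1 (3.76%), at 12 h 0 (4.31%) and at 24 h 0 (4.13%), where 2 members at each of these last times had an unadjusted p under 0.05. For the mean of the 4 times 3 of 5 were called (18.4% of all genes). DESeq2 called 5 of the 20 tests at single times in place of 3, adding ADAMTS12 at 0 h and ADAMTS2 at 6 h. None of the 3 was kept on TPM, scaled or not.

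ADAMTS12 was higher in VP64_A at every time, and no VP64_A library overlapped VP64_Ctrl at its time. Lack of overlap was not counted over all genes. It also held without a call for ADAMTS1 at 6 h (log2 difference 0.18) and ADAMTS6 at 12 h (-0.49). The scarce ADAMTS5 did not overlap at 0, 6 and 12 h either (-0.77, 1.29 and 1.37), again without a call. At 0 h the CPM of ADAMTS12 was 15.7, 18.6 and 20.6 in VP64_Ctrl and 25.7, 27 and 28.3 in VP64_A (log2 fold change 0.56 ± 0.18, adjusted p = 0.0509), and at 6 h 11.6, 17.5 and 19.7 against 24.8, 25.6 and 30.1 (0.75 ± 0.21, adjusted p = 0.0305). At 12 h the values were 19.5, 20.7 and 26.2 against 28.2, 29.5 and 39.2 (0.54 ± 0.19, adjusted p = 0.13), and at 24 h 19.1, 20 and 21.5 against 23.7, 28.5 and 38.7 (0.6 ± 0.19, adjusted p = 0.082). Over the 4 times the difference was 0.61 ± 0.1 (1.53-fold, adjusted p = 1.59e-05). The mean call held with each library left out and was lost only on log2(TPM + 1) without further scaling (0.37). Without VP64_A_24hr replicate 2 the 24 h difference was 0.74 and called. The call at 6 h was lost without VP64_Ctrl_6hr replicate 1 or 2 or any 1 of the VP64_A_6hr libraries (0.55 to 0.85).

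ADAMTS2 was lower in VP64_A. At 0 h its CPM was 4.55, 6.89 and 7.54 in VP64_Ctrl and 2.77, 2.8 and 3.43 in VP64_A (log2 fold change -1.05 ± 0.28, adjusted p = 0.0152), at 6 h -0.94 ± 0.28 (adjusted p = 0.0558), at 12 h -0.37 ± 0.28 and at 24 h -0.73 ± 0.31. The groups did not overlap at 0, 6 and 24 h. The 6 h difference was called under DESeq2 and with its size factors in edgeR (-0.96 in both), in the fit of only the libraries compared (-0.94) and on TMM-scaled TPM (-0.73). Over the 4 times the difference was -0.77 ± 0.14 (1.71-fold lower, adjusted p = 0.000157). The 0 h call was lost in the fit of only the libraries compared (-1.05) and without VP64_A_0hr replicate 2 or 3 or VP64_Ctrl_0hr replicate 2 or 3 (-0.88 to -1.01).

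ADAMTS6 was also lower in VP64_A at 0 h, with 7.53, 10.4 and 19.6 CPM in VP64_Ctrl against 4.12, 6.7 and 8.55 (log2 fold change -0.9 ± 0.28, adjusted p = 0.0353), although the libraries overlapped. Later differences of -0.41 (6 h), -0.49 (12 h) and -0.08 (24 h) were not called, and -0.47 ± 0.14 over the 4 times (adjusted p = 0.0176). The 0 h call was lost without VP64_Ctrl_0hr replicate 3 (-0.46), without VP64_A_0hr replicate 1 (-0.92) or 3 (-0.69), and in the fit of only the libraries compared (-0.91). ADAMTS1 was not called at any time, with 0.15 ± 0.1 over the 4 times (adjusted p = 0.348). Without VP64_Ctrl_0hr replicate 2, its highest control library, the 0 h difference of 0.44 became 0.77 and was called. ADAMTS5 gave 0.53 ± 0.36 over the 4 times (adjusted p = 0.346). KRT14 differed between the same groups of cells (median 53.9 TPM in VP64_A and 6.96 TPM in VP64_Ctrl), and its part in these differences was not tested.

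**Figure D5:**
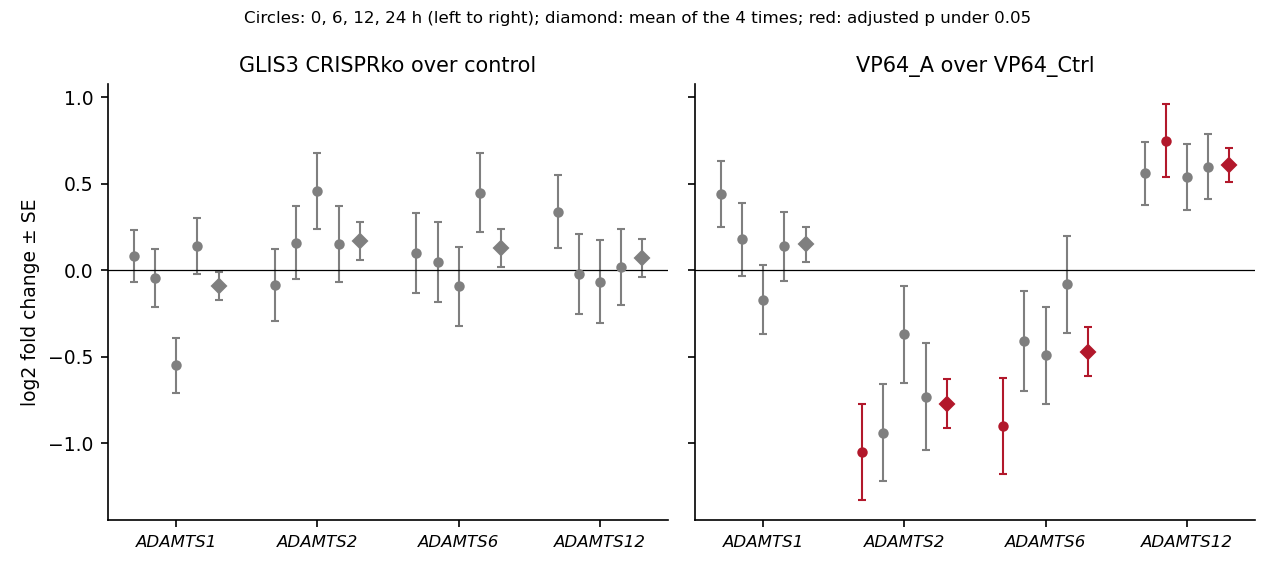
Log2 fold change ± SE (vertical axis) of 4 ADAMTS genes for GLIS3 CRISPRko over control (left) and VP64_A over VP64_Ctrl (right). Circles are 0, 6, 12 and 24 h from left to right, diamonds are the mean of the 4 times, and red marks an adjusted p under 0.05. In the CRISPRko panel 0 points are red, and in the CRISPRa panel ADAMTS2 and ADAMTS6 lie below 0 and ADAMTS12 above 0.

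Whether the cytokine response itself differed with GLIS3 was tested as an interaction at each time. In the CRISPRko arm 0 of 5 members were called at 6 h (0.00912% of all genes tested), 12 h (0%) and 24 h (0%), and in the CRISPRa arm 0 of 5 at 6 h (0.0911%), 12 h (0.264%) and 24 h (0.209%). At an unadjusted p under 0.05, 1 of 15 member tests passed for CRISPRko and 4 of 15 for CRISPRa, and DESeq2 called 0 members in either. Over all genes of the CRISPRko arm, DESeq2 called 40 at 6 h, 0 at 12 h and 1 at 24 h, where 709 and 616 genes had an unadjusted p under 0.05 in edgeR at 12 and 24 h. The 1 member test was ADAMTS1 at 12 h, where the fall was deeper by 0.63 ± 0.22 in GLIS3 CRISPRko (adjusted p = 0.711). For ADAMTS1 in the CRISPRa arm the interaction was -0.61 ± 0.28 at 12 h (adjusted p = 0.409), for ADAMTS6 it was 0.82 ± 0.39 at 24 h (adjusted p = 0.676), and for the scarce ADAMTS5 it was 2.07 ± 1 at 6 h (adjusted p = 0.527) and 2.15 ± 0.92 at 12 h (adjusted p = 0.38).

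The members' patterns were also set against each other over the 16 conditions, as a description of means that share libraries and arms. On log2 CPM scaled over all 48 libraries, Pearson's r between ADAMTS1 and ADAMTS2 was -0.8, between ADAMTS1 and ADAMTS6 -0.51, and between ADAMTS2 and ADAMTS6 0.51. ADAMTS12 gave 0.4 with ADAMTS1, -0.52 with ADAMTS2 and -0.41 with ADAMTS6. The condition means varied most for ADAMTS2 (SD 0.96), then ADAMTS1 (SD 0.9), ADAMTS6 (SD 0.4) and ADAMTS12 (SD 0.27). Of 10690 other genes, those most like ADAMTS2 were FBLIM1 (r = 0.95), the cell cycle inhibitor CDKN1A (0.93) and the death receptor FAS (0.92). Those most like ADAMTS1 were the chromatin remodeller CHD3, WDR73 and the respiratory chain subunit NDUFS7 (0.86 each), and those most like ADAMTS6 were CMTM3 (0.9), the stromelysin MMP3 and the exocyst subunit EXOC8 (0.89 each).

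Other genes of the family were mostly scarce. Of 19 names of further ADAMTS and ADAMTS-like genes, 18 were in the table (ADAMTSL6 is another name of THSD4), and 4 passed the filter on low counts, none of them a protease. These 4 were ADAMTSL1, ADAMTSL4, ADAMTSL5 and THSD4, secreted matrix proteins that lack the protease domain. In the CRISPRko arm 0 of the 4 were called in any comparison. In the CRISPRa arm, over the 4 times, ADAMTSL1 was higher in VP64_A (log2 fold change 1.89 ± 0.24, adjusted p = 3.5e-07), and THSD4 (-1.08 ± 0.19, adjusted p = 4.8e-05) and ADAMTSL4 (-0.92 ± 0.27, adjusted p = 0.015) were lower, so that 3 of 4 were called beside 18.4% of all genes, with a median of -0.61 beside -0.0037 over all genes. ADAMTSL1 fell with the cytokines in VP64_Ctrl at all 3 times (-1.78, -2.99 and -2.37), beside 28.8%, 26.8% and 16% of all genes called. VP64_A was also called lower at 12 h (-1.35) and 24 h (-1.12), beside 19.7% and 13.6%, but not at 6 h (-0.68). CRISPRko control gave -0.79, -2.54 and -2.28 and GLIS3 CRISPRko -0.69, -1.74 and -0.73, none called. No ADAMTSL1 interaction with the cytokines was called in either arm.

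Of 11 genes listed for inhibition, activation and clearance of the family, 9 were tested for CRISPRko and 8 for CRISPRa. The list also held the procollagen C-proteinase BMP1 and PCOLCE, which are not regulators of this kind. BMP1 is among the genes counted as rising at 6 h in all 4 groups. At 6 h, 4 of 9 rose and 0 fell in CRISPRko control (15.9% of all genes called, median 0.67 beside -0.032 over all genes), and 4 of 9 rose and 0 fell in GLIS3 CRISPRko (23.9% of all genes, median 0.19 beside -0.1). In VP64_Ctrl 4 of 8 rose and 1 fell (28.8%, median 0.4 beside -0.053), and in VP64_A 5 of 8 rose and 0 fell (17.4%, median 0.7 beside -0.013). TIMP3, the inhibitor, rose at 6 h in all 4 groups, by 0.81 ± 0.24 in CRISPRko control, 1.55 ± 0.25 in GLIS3 CRISPRko, 1.18 ± 0.21 in VP64_Ctrl and 1.03 ± 0.21 in VP64_A on the log2 scale. SDC4, a cell-surface proteoglycan that binds ADAMTS proteases, rose by 2.44 to 3.38, and BMP1, the procollagen C-proteinase, by 0.6 to 0.74. FURIN, a convertase that removes the prodomain of ADAMTS proteases, rose in CRISPRko control (0.98 ± 0.2) and VP64_A (0.67 ± 0.2), TIMP1 rose in GLIS3 CRISPRko (1.08 ± 0.24), VP64_Ctrl (1.21 ± 0.22) and VP64_A (0.78 ± 0.22), and LRP1 was the gene that fell in VP64_Ctrl (-0.84 ± 0.26). With GLIS3 CRISPRko 0 of the 9 were called at any time or over the 4 times. Over the 4 times, TIMP3 was lower in VP64_A than in VP64_Ctrl by 0.99 ± 0.1 (adjusted p = 4.63e-09), as were LRP1, the endocytic receptor (-0.37 ± 0.13), and TIMP1 (-0.33 ± 0.11), and 0 of the 8 were higher (18.4% of all genes called). At 0 h, FURIN was also lower in VP64_A (-0.6 ± 0.19, adjusted p = 0.0402).

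Of 15 substrates, 10 were tested for CRISPRko and 9 for CRISPRa. At 6 h 0 were called in either CRISPRko group (15.9% and 23.9% of all genes), 4 of 9 rose in VP64_Ctrl (28.8%) and 2 of 9 rose in VP64_A (17.4%). The 4 were COL1A1 (1.37 ± 0.34), FN1 (1.32 ± 0.32), THBS1 (1.27 ± 0.29) and COL5A1 (0.99 ± 0.2), and the 2 were THBS1 (1.63 ± 0.3) and COL5A1 (0.61 ± 0.19). Over the 4 times, 2 of 10 were lower in GLIS3 CRISPRko (COL3A1 -0.61 ± 0.16, adjusted p = 0.0226, and COMP, the target of ADAMTS12, -1.09 ± 0.28, adjusted p = 0.0212), beside 3.07% of all genes, with a median of -0.24 beside -0.0085 over all genes. In VP64_A, 6 of 9 were higher and 2 lower over the 4 times (18.4% of all genes called, median 0.83 beside -0.0037). Higher were the procollagens COL5A1 (1.46 ± 0.1), COL1A1 (1.14 ± 0.17), COL1A2 (0.9 ± 0.15) and COL3A1 (0.83 ± 0.15), the microfibril protein FBN1 (0.92 ± 0.091) and EFEMP2 (0.54 ± 0.1), and lower were the proteoglycan BGN (-0.73 ± 0.089) and THBS1 (-0.63 ± 0.15). In the same libraries the procollagen N-proteinase ADAMTS2 was lower, by the value given above.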

How the data were processed

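RNA was sequenced from 48 libraries. Per the methods and the labels, total RNA was selected on oligo(dT) beads, made into Nextera XT libraries and sequenced on a NextSeq 500, and the authors used Trim Galore for trimming, SortMeRNA against ribosomal reads, STAR for alignment (GRCh38) and Salmon for gene quantification (versions and counting strand are not given in the sources used here). The authors deposited Salmon estimated counts, which carry no normalization across libraries, and TPM, which correct for length and give every library an equal sum. Each table holds 29744 genes, with 0 columns unmatched, and 6.38% of the estimated counts are not whole. Salmon shares reads between similar or overlapping transcripts.

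Counts were rounded and each arm was fitted with edgeR 4.0.16 (R 4.3.3): TMM, filterByExpr (minimum count 10, minimum total 15) and the two-sided quasi-likelihood test with Benjamini-Hochberg adjustment. The SE comes from the F statistic. Groups came from the sample descriptions. Alternatives were DESeq2 1.42.0, its size factors, no filter, only the libraries compared, the replicate number as a block, each library left out, and limma 3.58.1 with TPM as log2 after adding 1 or 0.1. 2 further fits, TMM-scaled TPM and all 48 libraries together, were added after the data were seen. Intervals and floors (3 counts) cover counting error only, at 95%. The fits were also run on simulated counts with known changes at 24 h, and the outcome is not given here. Those changes were placed only in better expressed genes, so the scarce members were not covered. The members and gene lists were chosen with earlier results of these data known. All members are named, list genes are named where called in the comparisons described, and the 3 genes most correlated with each of the 3 most variable members are given. Among 48 pairs of libraries of the same condition, 0 were identical and the lowest chi-square per degree of freedom was 3.59. Proteins were not analysed here.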

Additional observations from a re-analysis of the deposited data

Results flagged for a closer look

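The cytokine response of ADAMTS1 differed between the control cells of the 2 arms by a test of the difference itself. VP64_Ctrl minus CRISPRko control gave 1.29 ± 0.26 on the log2 scale at 12 h (adjusted p = 0.00569) and 1.52 ± 0.26 at 24 h (adjusted p = 0.000854), from the edgeR fit over all 48 libraries that was chosen after the values were seen. With each library left out the differences ranged from 1.05 to 1.6 at 12 h and from 1.29 to 1.84 at 24 h, and both stayed called. On log2(TPM + 1) and log2(TPM + 0.1) the 12 h difference was 0.86 and 0.9 and not called, the 24 h difference was 1.34 and 1.42 and called, and the 6 h difference, 0.45 on counts, turned to -0.15 and -0.14. The arm cannot be told apart from the infected population, its handling or a different parent clone. No condition has more than 3 libraries, so single libraries were not tested for standing apart.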

How the results depend on the processing

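Of 37 member calls, DESeq2 lost 1, edgeR with its size factors 0, the fit of unfiltered genes 2, the fit of only the libraries compared 3 of 32, limma on log2(TPM + 1) 23, limma on log2(TPM + 0.1) 22 and limma on TMM-scaled TPM 13, and 0 changed sign under any of these or with any library left out. Newly called were 2 differences under DESeq2, 1 with its size factors, 1 with unfiltered genes, 1 in the fit of only the libraries compared, 4 on each unscaled TPM scale, 1 on TMM-scaled TPM and 9 over all fits with a library left out. TPM without further scaling moved the median of all genes by -0.65 to 0.53 with the pseudocount of 1 and by -0.81 to 0.67 with 0.1, against -0.1 to 0.077 for the edgeR fit on counts and -0.042 to 0.037 for TMM-scaled TPM. The ADAMTS1 calls at 6 h in all 4 groups and at 12 and 24 h in both CRISPRko groups were kept under all of them. On log2(TPM + 1) and log2(TPM + 0.1) alike, the calls were 4 instead of 7 for cytokines in CRISPRko control, 3 instead of 8 in GLIS3 CRISPRko, 3 instead of 8 in VP64_A, 3 instead of 6 for 24 h against 6 h and 0 instead of 3 for VP64_A against VP64_Ctrl at single times. On TMM-scaled TPM the cytokine calls in VP64_A were 3 and those of VP64_A against VP64_Ctrl 1, and DESeq2 gave 5 for the latter. On log2(TPM + 1) and log2(TPM + 0.1) the ADAMTS1 difference of VP64_Ctrl at 12 h from 0 h turned from 0.13 to -0.43 and -0.44, and the difference between the arms in the ADAMTS1 response turned from 0.45 to -0.15 and -0.14 at 6 h and was no longer called at 12 h (0.86 and 0.9). The cause of these changes was not tested.

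With each library left out, the calls ranged from 1 to 4 for VP64_A against VP64_Ctrl at single times, from 5 to 7 for cytokines in CRISPRko control, from 5 to 9 in GLIS3 CRISPRko, from 2 to 6 in VP64_Ctrl, from 5 to 8 in VP64_A and from 4 to 6 for 24 h against 6 h, and were 3 throughout for the mean of VP64_A against VP64_Ctrl and 0 throughout for both CRISPRko effects and both interactions. The ADAMTS6 difference of VP64_A from VP64_Ctrl at 24 h ranged from -0.26 to 0.068 and that of ADAMTS1 in VP64_Ctrl at 12 h from -0.12 to 0.44. With the replicate number as a block, the calls were 0 (CRISPRko) and 4 (CRISPRa) for the effects at single times, 0 and 3 for their means, 7, 8, 2 and 8 for the cytokines, 6 for 24 h against 6 h and 0 for the interactions, and the 1 further call was ADAMTS12 at 0 h (0.55). The difference between the arms in the ADAMTS1 response was 0.45, 1.28 and 1.52 at 6, 12 and 24 h with the block. Deviations of same-numbered libraries correlated by a median of 0.0086 for CRISPRko and 0.0084 for CRISPRa, with 6 and 7 of 84 pairs over 0.1. This gave no sign that the numbers pair the libraries, though a weak pairing could be missed. Libraries of 2321990 to 10661004 counts left ADAMTS4, ADAMTS5, ADAMTS9 and ADAMTS14 near the floor.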
